A study of Mus musculus with 9 samples.

Results

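Retinoic acid is made from vitamin A inside cells, and 9 genes covering its uptake, synthesis, binding, breakdown and sensing were followed in the newborn mouse eye. They were chosen by symbol for their role in this pathway: Stra6, Rdh10, Aldh1a1, Aldh1a2, Aldh1a3, Crabp1, Crabp2, Cyp26b1 and Rarb, 9 of the 35275 genes counted. RNA was sequenced from dissected anterior segments, the front of the eye with cornea and iris, at postnatal day 0. The 6 mutant samples came from Col4a1+/G1344D mice, which carry 1 copy of a missense allele of the collagen IV gene Col4a1, and the 3 wildtype samples from Col4a1+/+ mice. A sample was a pool, 4 eyes taken from 2 mice, and the tests below measure the spread between such pools.

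The uptake receptor STRA6 brings retinol into cells, RDH10 oxidises retinol to retinaldehyde, and the ALDH1A enzymes oxidise retinaldehyde to retinoic acid. Retinoic acid is carried in the cytosol by CRABP proteins, binds nuclear receptors that pair with RXR proteins on DNA, and is destroyed by CYP26 enzymes. In the developing eye it acts strongly on the neural crest-derived periocular mesenchyme, which gives rise to the corneal stroma, corneal endothelium and drainage tissue.

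The classic DNA element read by the receptors is a direct repeat of a 6-base site spaced by 5 bases. RefSeq promoter windows of GRCm38.p6, from 250 bases before to 50 bases after each annotated start, were held for 6 of the 9 genes (10 windows); Rdh10, Aldh1a3 and Crabp2 had none. The search took the site AGGTCA, the variant AGTTCA, the variant GGGTCA or the variant GGTTCA in either place, on both strands. Among these 6 genes the repeat was found in the window of Rarb, the receptor gene that is itself a textbook retinoic acid target. Among the other retinoid and response genes described below it was found for Cyp26a1, a breakdown enzyme induced by its own substrate. Across all 32851 promoter windows, 32 held the repeat, or 0.0974%, and a repeat of the same sites spaced by 2 bases stood in 88 windows, 0.268%, but in none of those 10. Both upstream stretches are shown because they carry the known response element of this pathway, beside which the RNA values of the same genes can be read. They end 1 base before an annotated start (for Rarb an internal one, while its counts cover the whole gene), run 5′ to 3′ along the gene, and have the repeated sites in capitals. The first is chr14:16575477-16575726, minus strand, and the second chr19:37697558-37697807, plus strand, where the repeat lies on the opposite strand and so reads as its reverse complement.
Rarb: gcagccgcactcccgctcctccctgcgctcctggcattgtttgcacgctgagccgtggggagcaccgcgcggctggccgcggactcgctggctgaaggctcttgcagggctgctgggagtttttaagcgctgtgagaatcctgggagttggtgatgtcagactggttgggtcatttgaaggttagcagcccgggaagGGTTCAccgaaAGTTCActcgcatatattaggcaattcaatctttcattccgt
Cyp26a1: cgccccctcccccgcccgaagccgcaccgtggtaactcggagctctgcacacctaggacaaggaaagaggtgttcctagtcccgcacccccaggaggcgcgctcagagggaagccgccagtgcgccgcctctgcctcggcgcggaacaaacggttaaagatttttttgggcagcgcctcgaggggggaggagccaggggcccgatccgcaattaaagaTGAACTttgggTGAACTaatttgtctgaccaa
A match of letters is a description of the window and not evidence that a receptor bound there in these samples.

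The libraries held between 25995340 and 35306935 counts each. Markers of the labelled tissue were present: the corneal epithelial keratin gene Krt12 averaged 224 CPM (counts scaled to library size, TMM-adjusted) in mutant and 226 CPM in wildtype libraries, the keratocyte gene Kera 995 and 1831 CPM, and the pigment gene Pmel 7722 and 8343 CPM. The 5 lens markers summed to between 5.79 and 8.61 CPM in mutant and between 7.87 and 8.52 CPM in wildtype libraries. The 9 neural retina markers summed to between 10.8 and 18.0 CPM in mutant and between 11.9 and 18.0 CPM in wildtype libraries, with the photoreceptor gene Rcvrn at 0 counts in every library, as was the pigment epithelium enzyme gene Rpe65. Libraries also split on Gm42418, a gene that collects ribosomal RNA reads. It took between 4.11% and 6.91% of counts in mutants 1, 3, 4, 5 and 6 and wildtype 1, and between 0.0663% and 0.0708% in mutant 2 and wildtype 2 and 3. The mutation is a missense change, so the RNA level of Col4a1 does not check the labels.

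Most of the retinoic acid genes did not pass the test between genotypes. All 9 had enough counts to be tested, 0 were called higher and 1, Crabp1, was called lower in mutant anterior segments (edgeR quasi-likelihood test, adjusted p under 0.05 over 15825 genes). Of all tested genes, 9.70% were called higher and 9.47% lower, 19.2% together, against 11.1% of these 9. Without adjustment, 1 gene was higher (Aldh1a2) and 1 lower (Crabp1) at p under 0.05 (edgeR), beside 5383 of all 15825 tested genes in either direction. DESeq2 and limma-voom also called 0 of the 9 higher and 1 lower. Over all genes DESeq2 called 1968 higher and 1817 lower, and limma-voom 2359 and 2335. The median log2 fold change of the 9 was 0.04, against 0.00 for all genes tested. For none of the 9 did the mutant libraries all lie on one side of all wildtype libraries, while this was so for 22.0% of all tested genes, 10.8% with the mutant higher and 11.2% with it lower.

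**Figure D1:**
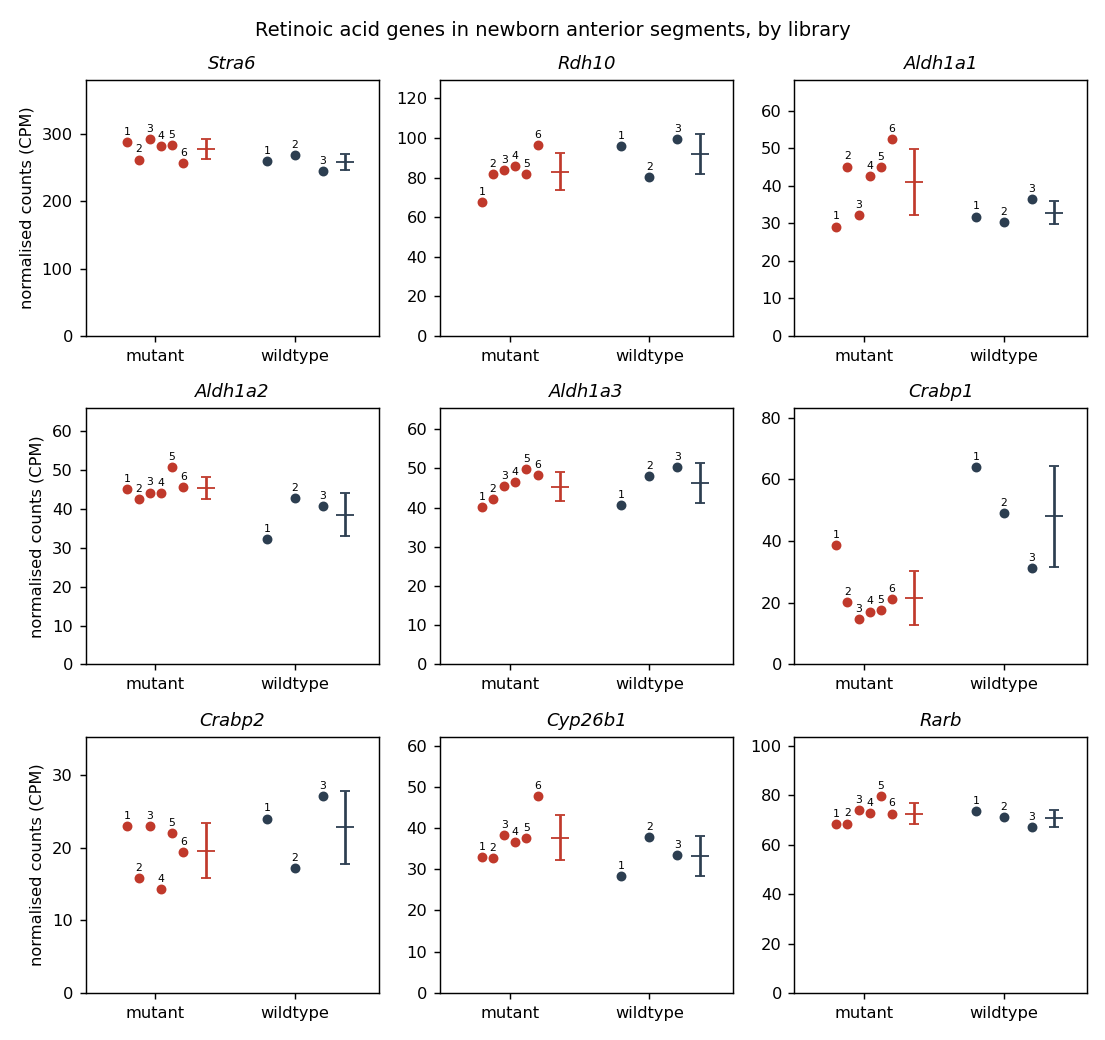
Normalised counts (CPM) of the 9 retinoic acid genes in each library, with mutant libraries left and wildtype libraries right in each panel. Small numbers are replicate numbers, and the bar beside each group is the mean with its SD (n = 6 mutant, n = 3 wildtype). Crabp1 averaged 21.6 CPM in mutant and 48.1 CPM in wildtype libraries, with mutant 1 above wildtype 3, and the groups overlapped in every panel.

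Crabp1 (ENSMUSG00000032291, chromosome 9, 54764748 to 54773110 of GRCm38, plus strand) encodes a cytosolic protein that binds retinoic acid. It had 38.8, 20.2, 14.7, 17.1, 17.6 and 21.2 CPM in mutants 1 to 6, against 63.9, 49.0 and 31.2 CPM in wildtype 1 to 3. In 5 of 6 mutant libraries it lay below every wildtype library, and mutant 1 stood above wildtype 3. The mean was 21.6 ± 8.73 CPM in mutant (SD, n = 6) and 48.1 ± 16.4 CPM in wildtype libraries (SD, n = 3), a 2.23-fold fall (log2 fold change -1.16, SE 0.297, 95% interval -1.81 to -0.50, edgeR adjusted p = 0.0232). Within the libraries with much ribosomal RNA, the 5 mutants averaged 21.9 CPM and wildtype 1 had 63.9 CPM. Within those with little, mutant 2 had 20.2 CPM and wildtype 2 and 3 averaged 40.1 CPM. The call was lost without wildtype 1 (log2 fold change -0.89, edgeR adjusted p = 0.131), wildtype 2 (-1.13, 0.0666) or mutant 4 (-1.09, 0.0787). It was also lost with no filter on low counts (edgeR adjusted p = 0.0768) and with the trend on exon length removed (-0.87, edgeR adjusted p = 0.145), with a range of 0.000674 to 0.145 over all alternatives.

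Of the 3 genes nearest to Crabp1 in pattern, 2 were genes of corneal stromal cells. The 3 genes whose standardised log2 CPM over the 9 libraries lay nearest to that of Crabp1 were Lum, Kera and Kcnab1, with root mean squared differences of 0.21, 0.22 and 0.23 SD. Lum and Kera encode keratan sulfate proteoglycans of the corneal stroma. Kcnab1, the third, was not called (log2 fold change -0.17, edgeR adjusted p = 0.193). Kera had 1376, 1036, 712, 957, 793 and 1098 CPM in mutants 1 to 6, against 2200, 1992 and 1299 CPM in wildtype 1 to 3. Lum had 2526, 2058, 1922, 1901, 1818 and 2212 CPM in mutants 1 to 6, against 3425, 3201 and 2483 CPM in wildtype 1 to 3. In Crabp1, Kera and Lum mutant 1 was the highest mutant library and wildtype 3 the lowest wildtype library. Lum and Kera were picked for their nearness to Crabp1 over these same libraries, so a shared order follows from the choice and is no separate result. Of 6 keratocyte markers, 4 were called lower (Kera, Lum, Dcn and Aldh3a1) and 0 higher (edgeR), beside 9.47% and 9.70% of all tested genes. Ptgds and Col8a2 were not called (log2 fold change -0.25 and -0.02, edgeR adjusted p = 0.143 and 0.93). The summed level of the 6 ran from 6319 to 8298 CPM in mutant and from 8608 to 11010 CPM in wildtype libraries. The part of keratocyte RNA in the fall of Crabp1 was not tested, and in bulk tissue fewer cells of a type and less RNA per cell cannot be told apart.

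**Figure D2:**
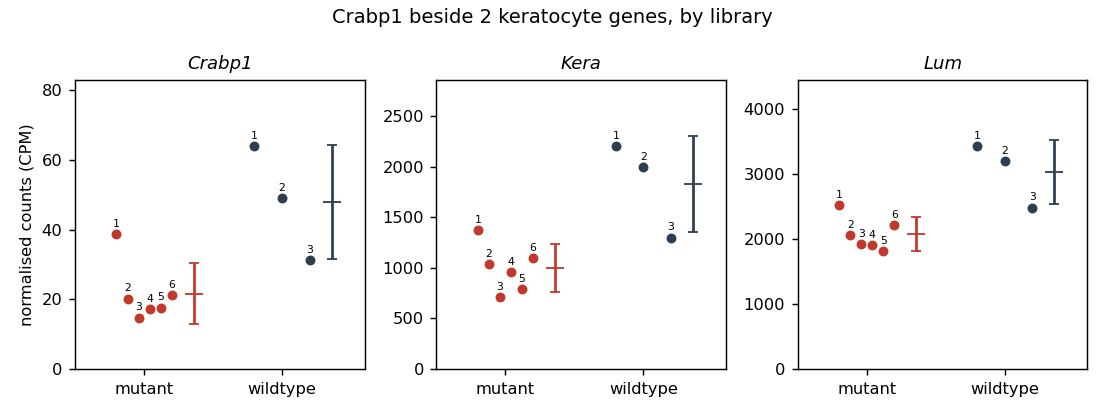
Normalised counts (CPM) of Crabp1 and of the keratocyte genes Kera and Lum in each library, mutant left and wildtype right, with replicate numbers and the mean with its SD beside each group. In all panels mutant 1 is the highest mutant library and wildtype 3 the lowest wildtype library, an order that follows from choosing Kera and Lum for nearness to Crabp1. Kera averaged 995 CPM in mutant and 1831 CPM in wildtype libraries.

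Crabp2 (ENSMUSG00000004885, chromosome 3, 87948666 to 87953376, plus strand) encodes the relative that delivers retinoic acid to its nuclear receptors. It ranged from 14.3 to 23.0 CPM in mutant libraries, with a median of 20.7, and had 24.0, 17.2 and 27.2 CPM in wildtype 1 to 3. The groups overlapped, and the difference did not pass the test (log2 fold change -0.22, 95% interval -0.58 to 0.14, edgeR adjusted p = 0.385). Per exon length, the ratio of Crabp1 to Crabp2 was 1.84 ± 0.612 in mutant (SD, n = 6) and 3.65 ± 1.54 in wildtype libraries (SD, n = 3). Its range was 1.05 to 2.78 in mutant and 1.89 to 4.69 in wildtype libraries, so the groups overlapped here too.

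Among the 9 genes, Stra6 for uptake and Rdh10 for the first oxidation step showed no called difference. Stra6 (ENSMUSG00000032327, chromosome 9, 58063788 to 58153996, plus strand) encodes the receptor that takes up retinol from its plasma carrier. It ranged from 257 to 293 CPM in mutant libraries, with a median of 283, and had 260, 269 and 245 CPM in wildtype 1 to 3. In 4 of 6 mutant libraries it lay above every wildtype library, with a log2 fold change of 0.11 (95% interval -0.05 to 0.26, edgeR adjusted p = 0.333). Rdh10 (ENSMUSG00000025921, chromosome 1, 16105774 to 16133734, plus strand) encodes the main retinol dehydrogenase of the embryo. It ranged from 67.7 CPM in mutant 1 to 96.6 CPM in mutant 6, with a median of 82.9, and had 96.0, 80.3 and 99.6 CPM in wildtype 1 to 3. The log2 fold change of Rdh10 was -0.15 (95% interval -0.36 to 0.07, edgeR adjusted p = 0.323), and the groups overlapped.

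The 3 retinaldehyde dehydrogenase genes, whose enzymes make retinoic acid, did not pass the test either. Aldh1a1 (ENSMUSG00000053279, chromosome 19, 20492715 to 20643465, plus strand) ranged from 29.1 to 52.5 CPM in mutant libraries, with a median of 43.8, and had 31.8, 30.4 and 36.4 CPM in wildtype 1 to 3. Mutants 2, 4, 5 and 6 lay above every wildtype library, and mutant 1 below all of them. Its log2 fold change was 0.32 (95% interval -0.01 to 0.65, edgeR adjusted p = 0.155), and without mutant 1 it passed the test (0.40, edgeR adjusted p = 0.0423). Over all alternatives its adjusted p ran from 0.0423 to 0.749.

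Aldh1a2 (ENSMUSG00000013584, chromosome 9, 71215789 to 71296243, plus strand), known from the periocular mesenchyme, ranged from 42.6 to 50.7 CPM in mutant libraries, with a median of 44.7, and had 32.2, 42.8 and 40.7 CPM in wildtype 1 to 3. In 5 of 6 mutant libraries it lay above every wildtype library, and mutant 2 was just below wildtype 2. The log2 fold change of Aldh1a2 was 0.24 (95% interval 0.02 to 0.45, edgeR adjusted p = 0.109). It passed the test once the trend on exon length was removed (0.36, edgeR adjusted p = 0.0291), was 0.12 without wildtype 1 (edgeR adjusted p = 0.507), and its adjusted p over all alternatives ran from 0.0291 to 0.507. Within the libraries with much ribosomal RNA, the 5 mutants averaged 46.0 CPM and wildtype 1 had 32.2 CPM. Within those with little, mutant 2 had 42.6 CPM and wildtype 2 and 3 averaged 41.7 CPM.

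Aldh1a3 (ENSMUSG00000015134, chromosome 7, 66390890 to 66427517, minus strand) ranged from 40.1 to 49.7 CPM in mutant libraries, with a median of 45.9, and had 40.6, 48.0 and 50.3 CPM in wildtype 1 to 3. Its log2 fold change was -0.03 (95% interval -0.24 to 0.18, edgeR adjusted p = 0.871), with a sign that turned under 4 alternatives. Within the libraries with much ribosomal RNA, the 5 mutants averaged 46.0 CPM of Aldh1a3 and wildtype 1 had 40.6 CPM, whereas with little, mutant 2 had 42.1 CPM and wildtype 2 and 3 averaged 49.1 CPM. Per exon length, Aldh1a2 was the most abundant of the 3 dehydrogenase genes in both genotypes, with 52.7 ± 3.14% of their summed TPM (counts scaled to exon length and library total) in mutant (SD, n = 6) and 50.4 ± 2.59% in wildtype libraries (SD, n = 3). Aldh1a1 held 21.6 ± 3.47% of that sum in mutant and 19.9 ± 2.28% in wildtype libraries. The share of Aldh1a3 was 25.8 ± 0.996% in mutant and 29.7 ± 0.404% in wildtype libraries. Its range of 24.6% to 27.4% in mutant libraries lay wholly below the 29.3% to 30.1% of wildtype libraries, an observation made after the values were seen. A share shows unequal change among the 3 genes and not which of them changed, and the sum itself was 123 ± 11.6 TPM in mutant and 108 ± 20.2 TPM in wildtype libraries.

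Cyp26b1 (ENSMUSG00000063415, chromosome 6, 84571414 to 84593908, minus strand) encodes an enzyme that breaks retinoic acid down. It ranged from 32.8 to 47.8 CPM in mutant libraries, with a median of 37.1, and had 28.3, 37.9 and 33.5 CPM in wildtype 1 to 3. Mutants 3 and 6 lay above every wildtype library. The log2 fold change was 0.18 (95% interval -0.08 to 0.44, edgeR adjusted p = 0.33). It did not keep its direction within library sets: with much ribosomal RNA, the 5 mutants averaged 38.6 CPM and wildtype 1 had 28.3 CPM, and with little, mutant 2 had 32.8 CPM and wildtype 2 and 3 averaged 35.7 CPM.

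Rarb (ENSMUSG00000017491, chromosome 14, 16430839 to 16819156, minus strand), the receptor gene with the response element shown above, binds retinoic acid and regulates transcription. It ranged from 68.2 to 79.8 CPM in mutant libraries, with a median of 72.7, and had 73.7, 71.3 and 67.0 CPM in wildtype 1 to 3. Its log2 fold change was 0.04 (95% interval -0.13 to 0.21, edgeR adjusted p = 0.762), so fold changes above 1.16 or below 0.915 lay outside the interval, and the sign turned under 3 alternatives. Exons of Rarb share 1793 bases with those of Top2b on the opposite strand, which was called higher in the mutant (log2 fold change 0.32, edgeR adjusted p = 0.0185). The strand setting of the counting is unknown here, and reads from that stretch are uncertain.

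**Figure D3:**
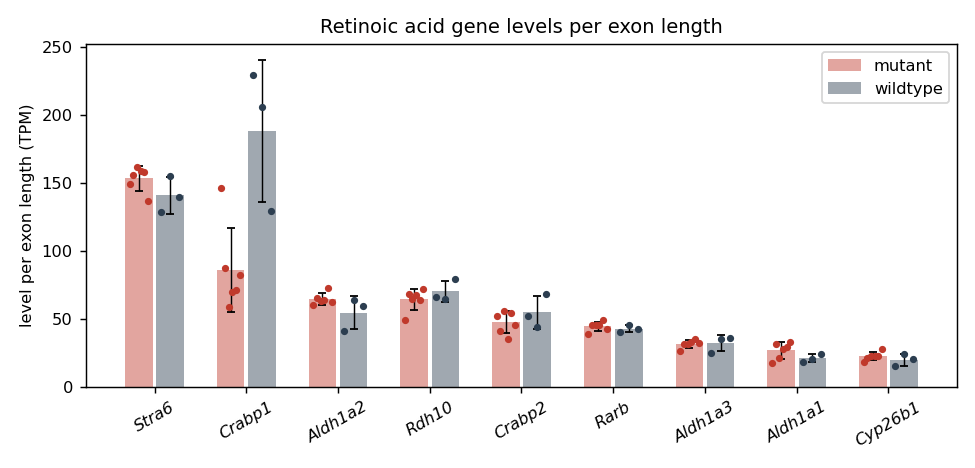
Mean level per exon length (TPM) of the 9 genes, mutant bars left of wildtype bars, with each library as a point and error bars of 1 SD (n = 6 mutant, n = 3 wildtype). Stra6 averaged 154 TPM in mutant and 141 TPM in wildtype libraries, Crabp1 86.0 and 188 TPM, and Cyp26b1, the lowest in both, 22.6 and 19.9 TPM.

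Levels of different genes were set side by side per exon length, in TPM over the annotated exons. In mutant libraries the order was Stra6 (154 ± 9.13), Crabp1 (86.0 ± 31.1), Aldh1a2 (64.6 ± 4.36), Rdh10 (64.3 ± 7.93), Crabp2 (47.5 ± 8.12), Rarb (44.5 ± 3.33), Aldh1a3 (31.7 ± 2.92), Aldh1a1 (26.9 ± 6.12) and Cyp26b1 (22.6 ± 2.99). Wildtype libraries had Crabp1 first (188 ± 52.3), then Stra6 (141 ± 13.6), Rdh10 (70.2 ± 7.96), Crabp2 (54.8 ± 12.4), Aldh1a2 (54.7 ± 12.1), Rarb (42.7 ± 2.68), Aldh1a3 (32.1 ± 5.95), Aldh1a1 (21.2 ± 2.99) and Cyp26b1 (19.9 ± 4.37). Neighbours in these orders overlapped between libraries except Rarb over Aldh1a3 in both genotypes, and Stra6 over Rdh10 and Aldh1a3 over Aldh1a1 in wildtype libraries. Stra6 exceeded Crabp1 in 6 of 6 mutant libraries, and Crabp1 exceeded Stra6 in 2 of 3 wildtype libraries.

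The wider retinoid pathway held calls in both directions. Of 44 other genes for retinoid transport, oxidation, the visual cycle, breakdown, receptors and cofactors, 39 were tested, 7 were called higher and 5 lower (edgeR), 30.8% beside 19.2% of all tested genes, a difference that was not tested. Rbp7, Stra6l, Dhrs9, Rgr and Rpe65 had too few counts. The median log2 fold change of the 39 was -0.05. Of the 12 called genes, 1 (Lrp2) remained called without wildtype 1, and 9 without wildtype 3, while 12 remained in each run that left out another library. With the ribosomal RNA split as a covariate, 10 remained. All 14 called genes of these lists, Crabp1 and Tgm2 among them, had the same direction within the libraries with much and with little ribosomal RNA. In all of them but Crabp1 and Cyp1b1 the groups did not overlap. Any split of such a gene gives the same direction, so for it this is no check on the ribosomal RNA split.

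Among the 8 transport genes tested, 1 rose, beside 9.70% of all tested genes. Lrp2, the endocytic receptor megalin, had 8.23 to 13.8 CPM in mutant libraries, with a median of 9.13, against 5.72, 4.16 and 6.11 CPM in wildtype 1 to 3. It rose 1.84-fold (log2 fold change 0.88, SE 0.194, edgeR adjusted p = 0.00702), again without overlap. The plasma carrier gene Rbp4 averaged 1.87 CPM in mutant and 1.70 CPM in wildtype libraries, and Lrat, whose enzyme stores retinol as esters, 0.767 and 1.44 CPM, both without a call.

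Of 14 tested genes for retinoid oxidation and reduction, 1 rose and 2 fell, beside 9.70% and 9.47% of all tested genes. Cyp1b1, a cytochrome P450 gene of congenital glaucoma that can oxidise retinol, had 181 to 281 CPM in mutant libraries, with a median of 243, against 171, 171 and 183 CPM in wildtype 1 to 3. Mutant 1, the lowest mutant library, lay below wildtype 3, and the rise was 1.38-fold (edgeR adjusted p = 0.0112). Rdh14, a retinol dehydrogenase gene, fell 1.51-fold to between 29.0 and 40.4 CPM in mutant libraries, against 63.5, 40.5 and 53.3 CPM in wildtype 1 to 3 (edgeR adjusted p = 0.00718). Dhrs4, a carbonyl reductase gene, fell 1.35-fold to between 23.7 and 30.8 CPM in mutant libraries, against 39.0, 37.6 and 39.3 CPM in wildtype 1 to 3 (edgeR adjusted p = 0.00774). In Rdh14, Dhrs4 and all but the lowest mutant library of Cyp1b1 the groups were separate. Without wildtype 1 the log2 fold changes were 0.45 for Cyp1b1, -0.43 for Rdh14 and -0.43 for Dhrs4 (edgeR adjusted p = 0.0778, 0.0887 and 0.0548). Dhrs3, which turns retinaldehyde back into retinol and is known to be induced by retinoic acid, averaged 63.5 ± 7.09 CPM in mutant (SD, n = 6) and 52.5 ± 1.32 CPM in wildtype libraries (SD, n = 3). Every mutant library lay above every wildtype library, yet its adjusted p was 0.0615 in edgeR, 0.0332 in DESeq2 and 0.00333 in limma-voom, with a range of 0.00333 to 0.183 over all alternatives.

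Of the 2 other breakdown genes, 1 fell and 0 rose (edgeR), beside 9.47% and 9.70% of all tested genes. Cyp26a1, whose promoter repeat is shown above, had 18.2 to 32.0 CPM in mutant libraries, with a median of 22.7, against 38.0, 34.0 and 34.8 CPM in wildtype 1 to 3. The groups did not overlap, and the fall was 1.51-fold (log2 fold change -0.60, SE 0.147, edgeR adjusted p = 0.0115). Without wildtype 1 its log2 fold change was -0.55 (edgeR adjusted p = 0.0871). Cyp26c1 averaged 0.546 CPM in mutant and 0.494 CPM in wildtype libraries, with a 95% interval of 0.438 to 2.83 for the fold change. Of the genes with the promoter repeat, Cyp26a1 thus passed the test and Rarb, at a log2 fold change of 0.04, did not; whether they differ from each other was not tested.

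Of the 6 receptor genes tested, 1 rose and 0 fell (edgeR), beside 9.70% and 9.47% of all tested genes. Rxra, the main RXR partner of retinoic acid receptors in the eye, had 155 to 173 CPM in mutant libraries, with a median of 164, against 129, 139 and 143 CPM in wildtype 1 to 3. It rose without overlap (log2 fold change 0.26, SE 0.07, edgeR adjusted p = 0.0169), with 0.22 and an edgeR adjusted p of 0.114 without wildtype 1. Rara averaged 34.9 ± 5.97 CPM in mutant and 31.4 ± 4.97 CPM in wildtype libraries, and Rarg 90.5 ± 6.28 and 91.4 ± 13.1 CPM, both without a call. Rxrb averaged 74.0 ± 9.32 CPM in mutant and 92.0 ± 14.9 CPM in wildtype libraries, with an adjusted p of 0.0632 in edgeR, 0.0475 in DESeq2 and from 0.031 to 0.404 over all alternatives, and Rxrg averaged 0.963 and 1.14 CPM.

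Among cofactors, 3 of 7 rose and 0 fell (edgeR), beside 9.70% and 9.47% of all tested genes. Whether so short a list differs from those shares was not tested. The rises were of the nuclear receptor coactivator genes Ncoa1, Ncoa2 and Ncoa3, by 1.33-fold, 1.28-fold and 1.42-fold (edgeR adjusted p = 0.0192, 0.0233 and 0.00583). Ncoa3 had 38.1 to 49.3 CPM in mutant libraries, with a median of 41.3, against 26.1, 31.6 and 31.6 CPM in wildtype 1 to 3, without overlap. These coactivators serve many nuclear receptors besides those of retinoic acid. Without wildtype 1 the adjusted p values were 0.142 for Ncoa1, 0.165 for Ncoa2 and 0.0618 for Ncoa3, and without wildtype 3 that of Ncoa2 was 0.076 (edgeR). Ncoa1 and Ncoa2 lost their calls once the trend on exon length was removed (edgeR adjusted p = 0.0708 and 0.414). Of the carriers of the visual cycle, Rbp3, the retinoid carrier between photoreceptors and pigment epithelium, rose 1.45-fold to between 44.9 and 67.6 CPM in mutant libraries, against 39.3, 41.1 and 37.2 CPM in wildtype 1 to 3 (edgeR adjusted p = 0.00977). Rlbp1, the cellular retinaldehyde carrier, fell 1.23-fold to between 234 and 278 CPM in mutant libraries, against 328, 282 and 352 CPM in wildtype 1 to 3 (edgeR adjusted p = 0.0259). Without wildtype 1 the adjusted p was 0.063 for Rbp3 and 0.125 for Rlbp1, and without wildtype 3 it was 0.0504 and 0.16 (edgeR). With the ribosomal RNA split as a covariate, Rlbp1 and Ncoa2 lost their calls (edgeR adjusted p = 0.0884 and 0.0584).

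Genes known to respond to retinoic acid were listed apart. Cyp26a1, Dhrs3 and Rarb, described above as targets of retinoic acid or induced by it, were counted in the other lists and not in this one. Of the 15, 12 were tested, 1 was called higher and 0 lower, 8.33% beside 19.2% of all tested genes, with a median log2 fold change of 0.06 (edgeR). At unadjusted p under 0.05, 5 of the 12 passed (edgeR), beside 5383 of all 15825 tested genes. Among the 5, Tgm2, Foxc1, Nr2f2 and Rai14 were higher and Dkk2 was lower in the mutant. DESeq2 and limma-voom each called 2 higher and 1 lower. Over all genes DESeq2 called 1968 higher and 1817 lower, and limma-voom 2359 and 2335. Hoxb1 had 0 counts in every library, and Cdx1 had 4 over all libraries. The called gene was Tgm2, a transglutaminase induced by retinoic acid, with 25.3 to 37.1 CPM in mutant libraries, a median of 33.0, and 21.4, 22.9 and 23.3 CPM in wildtype 1 to 3. It rose 1.41-fold without overlap (log2 fold change 0.50, SE 0.118, edgeR adjusted p = 0.00971), and without wildtype 1 its edgeR adjusted p was 0.0766. Dkk2, a Wnt antagonist gene and a target of retinoic acid in periocular mesenchyme, averaged 348 ± 33.4 CPM in mutant and 415 ± 29.4 CPM in wildtype libraries (edgeR adjusted p = 0.0535). Foxc1, on the same list, averaged 131 ± 18.9 CPM in mutant and 102 ± 19.8 CPM in wildtype libraries (edgeR adjusted p = 0.0545). The 5 periocular mesenchyme markers summed to between 449 and 532 CPM in mutant and between 396 and 491 CPM in wildtype libraries. The 5 endothelial markers, all called higher beside 9.70% of all tested genes (edgeR), summed to between 377 and 488 CPM in mutant and between 244 and 320 CPM in wildtype libraries. The 5 macrophage markers, of which 2 were called higher (Cd68 and Adgre1) and 0 lower (edgeR), summed to between 125 and 166 CPM in mutant and between 115 and 123 CPM in wildtype libraries. Globin genes of red blood cells took 0.179% to 0.843% of counts in mutant and 0.0527% to 0.0882% in wildtype libraries, without overlap. The part of these cell types in the retinoid genes was not tested.

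**Figure D4:**
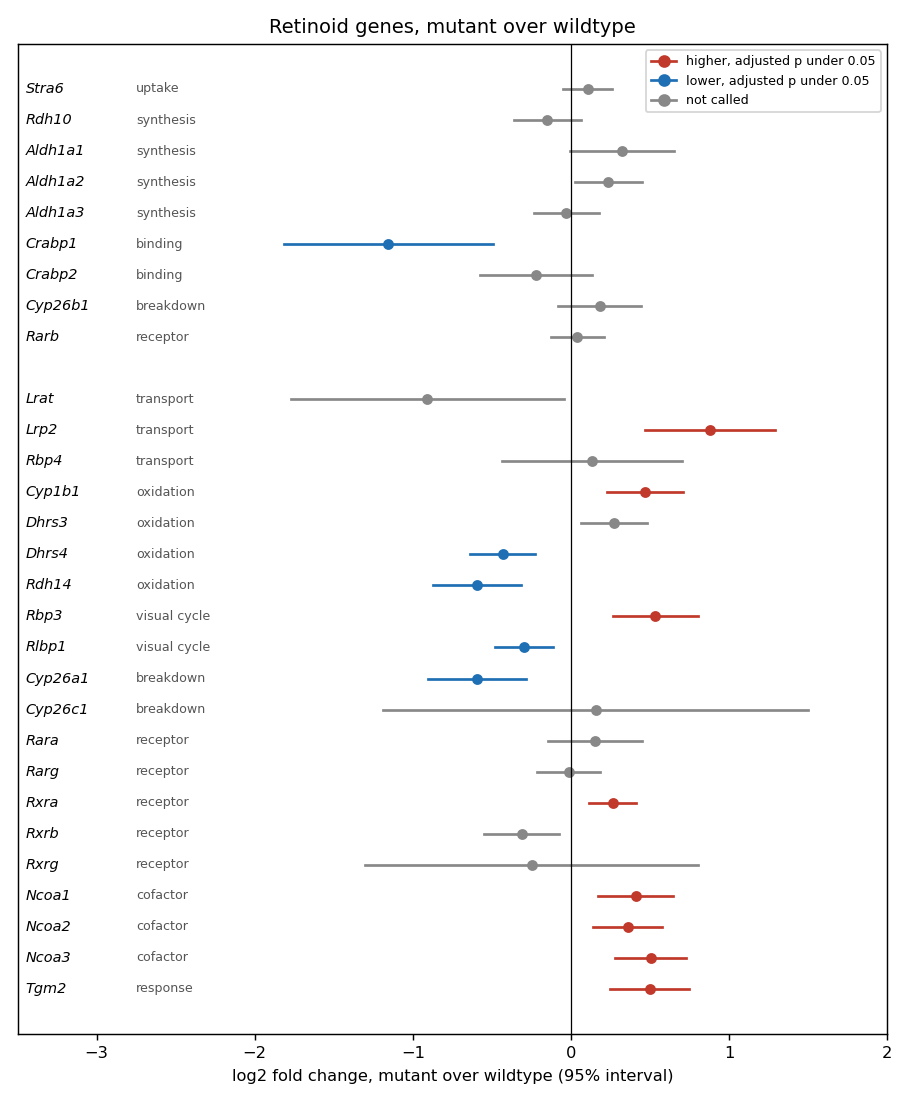
Log2 fold change of mutant over wildtype with its 95% interval, coloured by call at an adjusted p of 0.05. The upper block holds the 9 retinoic acid genes. The lower block holds the other tested retinoid and response genes named in the text, except Dkk2, Foxc1, Nr2f2 and Rai14. In the upper block the interval of Crabp1 runs from -1.81 to -0.50, while that of Rarb runs from -0.13 to 0.21.

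**Figure D5:**
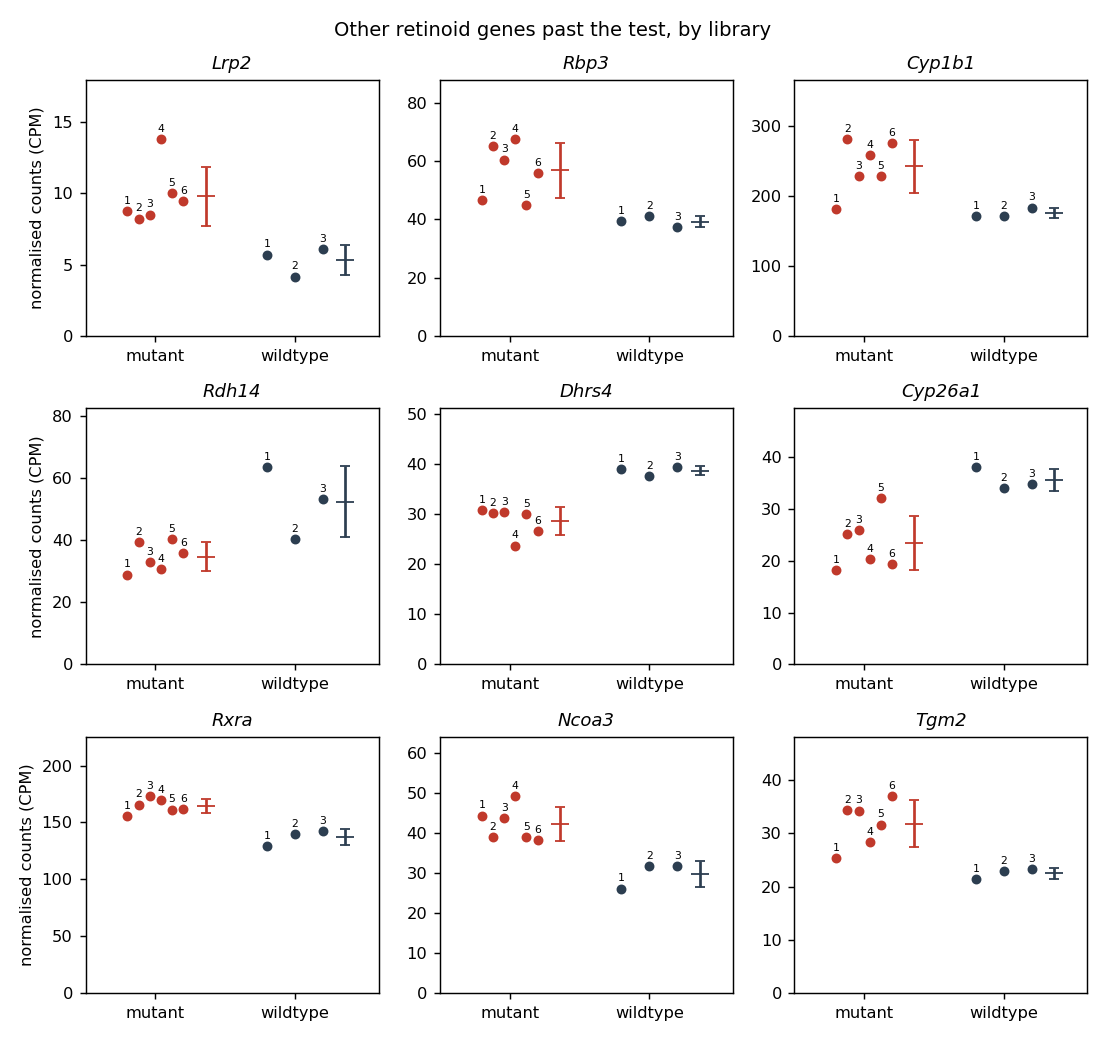
Normalised counts (CPM) of 9 other retinoid and response genes past the test, mutant libraries left and wildtype libraries right, with replicate numbers and the mean with its SD beside each group. The groups do not overlap except in Cyp1b1, where mutant 1 at 181 CPM lies below wildtype 3 at 183 CPM.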

How the data were processed

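The authors deposited raw read counts per Ensembl gene, 1 column per sample and with no normalization. The submitters' processing notes name HTSeq 0.6.1, STAR 2.6.1, DESeq2 1.6.3 and the build GRCm38, with no roles. Not given in the sources used here are the annotation release and strand setting. Groups follow the genotype in the sample titles, and 0 columns lacked a sample. Library pairs within a group differed by 15.6 or more chi-square units per degree of freedom, so each library was 1 replicate.

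Symbols, positions and exon lengths came from GENCODE M21 (GRCm38), which held 34490 of 35275 identifiers, and promoter sequences from RefSeq. The main test was edgeR 4.0.16 in R 4.3.3: TMM scaling, filterByExpr at its defaults, robust glmQLFit on genotype alone, and Benjamini-Hochberg adjustment across 15825 genes, called at 0.05. CPM uses TMM library sizes, and log2 CPM a prior count of 2. The SE is the size of the log2 fold change over the root of its F statistic, and intervals use the t distribution of the fit. TPM divides counts by the total annotated exon length, which a mix of isoforms can shift. The test was checked on simulated counts with known changes.

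Alternatives were other scaling, DESeq2 1.42.0, limma-voom 3.58.1, other filters, a threshold of 0.01, a replicate block, the ribosomal RNA split (1% of counts on Gm42418) as a covariate, Gm42418 and Lars2 left out, an exon length trend removed (mgcv 1.9.3), and leaving out each library. The genes and lists were chosen with earlier results of these data known, so they give no independent support. Named genes were the 9 genes, every list member past the test and 11 further retinoid genes whatever their test. Also named were the 3 genes nearest in pattern to each of the 3 genes with the lowest p. Dkk2, Foxc1, Nr2f2, Rai14 and the markers serve as context. Some listed genes are not reported here.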

Additional observations from a re-analysis of the deposited data

Results flagged for a closer look

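In 6 of the 30 genes compared this way, 1 mutant library stood apart from the other 5 by more than Dixon's criterion for 6 samples, a gap that chance gives in about 1 in 20 groups. Among the retinoic acid genes, Aldh1a2 had 50.7 CPM in mutant 5, Crabp1 had 38.8 CPM in mutant 1 and Cyp26b1 had 47.8 CPM in mutant 6, each above the other mutant libraries. In mutant 4, Lrp2 had 13.8 CPM, Ncoa1 70.7 CPM and Ncoa2 97.7 CPM, likewise above the others. Groups of 3 wildtype libraries were too small for this criterion.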

How the results depend on the processing

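The labels do not say whether equal replicate numbers mark a shared litter or day. Deviations from group means correlated between -0.104 and 0.095 in the 3 same-numbered pairs and between -0.163 and 0.19 in the 15 others. So few same-numbered pairs cannot exclude a pairing. With the replicate block, 814 genes were called higher and 671 lower, against 1535 and 1499. Other retinoid genes then had 3 called lower, response genes 2 higher and 1 lower, and Dhrs4, Cyp1b1, Rlbp1, Ncoa1 and Ncoa2 lost their calls. Under the block Rarb turned to -0.0080 (log2), Cyp26c1 to -0.464 and Rxrg to 0.0659; Crabp1 stayed called.

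Limma-voom called 2359 genes higher and 2335 lower, with 9 other retinoid genes lower and 2 response genes higher and 1 lower; DESeq2 gave 8 other retinoid genes lower and the same response counts. Upper-quartile scaling and the stricter filter each called 1 response gene lower. With no low-count filter, 0 of the 9 retinoic acid genes were called (edgeR). At 0.01, 520 and 512 genes, 0 of the 9 and 3 and 3 other retinoid genes were called (edgeR).

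With the ribosomal RNA covariate, 938 and 939 genes and 2 response genes higher were called, Rlbp1 and Ncoa2 lost their calls, and Aldh1a3 turned to 0.00050, Rarb to -0.0080 and Rarg to 0.116. With the exon length trend removed, 918 genes were called higher, and of the 9 retinoic acid genes 1 was higher and 0 lower (edgeR), while Rarb turned to -0.0193.

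Leaving out each library in turn gave 303 to 1688 genes higher and 235 to 1577 lower, 0 to 1 of the 9 higher and 0 to 1 lower, 1 to 9 and 0 to 7 other retinoid genes, and 0 to 2 and 0 to 1 response genes (edgeR). The lowest counts over all genes and the other retinoid genes were those without wildtype 1; without wildtype 3, 849 and 820 genes were called. Log2 fold changes ran from -0.114 to 0.0368 for Aldh1a3, -0.12 to 0.0873 for Rarg, -0.202 to 0.516 for Cyp26c1 and -0.743 to 0.24 for Rxrg. The causes were not tested. Cyp26c1 and Rxrg lay near 1 CPM or below and varied widely: Cyp26c1 had 3 to 34 counts in mutant libraries, and Rxrg 49, 5 and 40 counts in wildtype 1 to 3.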

Other observations

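Beside Crabp1, the genes with the lowest p among the retinoic acid genes were Aldh1a2 and Aldh1a1. The patterns over the 9 libraries nearest to that of Aldh1a2 were those of Mov10, an RNA helicase gene, Atf7ip, a chromatin cofactor gene, and Sdad1, with root mean squared differences of 0.25, 0.33 and 0.34 SD of standardised log2 CPM. Of these, Atf7ip was called higher in the mutant (log2 fold change 0.41, edgeR adjusted p = 0.0109), with 96.7 CPM in mutant and 73.0 CPM in wildtype libraries. The patterns nearest to that of Aldh1a1 were those of Hhip, which encodes a hedgehog-binding protein, Cep120, a centrosome gene, and Sp140, at 0.28, 0.29 and 0.32 SD. Hhip averaged 37.4 CPM in mutant and 29.0 CPM in wildtype libraries (edgeR adjusted p = 0.109). With 9 libraries and 15825 genes, some pattern lies near that of any gene.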
